A study of Mus musculus with 8 samples.

Results

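The 32 genes described here encode proteins that bring glucose into heart muscle, break it down to pyruvate and lactate, pass pyruvate to the mitochondria, and store glucose as glycogen. They were chosen by name and by no rule on measured values, though with earlier results of these data known. All 32 were found among the 19062 named genes tested, through 49 of the 35329 probes tested. RNA came from the myocardium of untreated male mice, 3 samples labelled NPRA-/- and 5 labelled NPRA+/+, and each sample was hybridised with Cy3 to its own Agilent array. The series' design text names an array for m6A, a methyl mark on RNA, whereas its type, its labelling protocol and the array files are those of a gene expression array. The values are read here as RNA levels, and that mismatch is not settled by the sources used here. NPRA is natriuretic peptide receptor A, the product of Npr1, through which atrial and brain natriuretic peptides raise cyclic GMP. The knockout was a conditional model with floxed alleles (NprA flox/flox), and the series title places the loss in the heart. The sources used here give neither the Cre driver nor the age and background strain of the mice, nor whether the NPRA+/+ mice carried floxed alleles. The labels call the samples biological repetitions without naming animals, so a p-value here measures the spread among samples, which may be technical in part. The source names give 3 of the 5 NPRA+/+ samples the same number.

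Heart muscle takes up glucose mainly through an insulin-responsive transporter that moves to the cell surface and through a basal transporter that stays there. Hexokinase traps the sugar inside the cell, phosphofructokinase commits it to glycolysis, and lactate dehydrogenase and pyruvate dehydrogenase divide the fate of pyruvate between lactate and mitochondrial oxidation. The adult heart prefers fatty acids as fuel and turns further to glucose under load or low oxygen. Many of these steps are served by isoforms that differ between striated muscle and other cells, and each pair of isoforms is treated together below.

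Levels are log2 processed signals relative to the 75th percentile of the same array, so that 0 is the level of that percentile, and a change is the NPRA-/- mean minus the NPRA+/+ mean of these levels. Between 79.5% and 92.6% of the probes of an array were well above background, the 75th percentile of signal lay between 775 and 1253 units, and 0 spots were saturated. The arrays were scanned on 4 days at 6 distinct scan times. Arrays with the same scan time were taken as lying on the same slide, and no such slide held both genotypes. Day 1 held NPRA-/- replicates 2 and 3 and NPRA+/+ replicates 2 and 3, day 2 held NPRA+/+ replicates 4 and 5, day 3 held NPRA-/- replicate 1 and day 4 held NPRA+/+ replicate 1. The last pair of arrays stood apart from the other 6, and their deviations from the genotype means ran together (r = 0.635 over all probes). The Npr1 probe lay close to background and gave 0.03 ± 0.40 (SE; limma adjusted p = 0.978), but its position on the gene is unknown here, so it does not check the labels. The median change of all probes was 0.21, and over 5 equal groups of probes by signal it went from 0.63 in the dimmest to 0.05 in the brightest.

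None of the 32 genes differed between the genotypes at an adjusted p of 0.05 (limma, Benjamini-Hochberg over all probes tested). Over all probes 113 were called higher on NPRA-/- arrays (0.32%) and 10 lower (0.0283%), so 0 of 32 is close to that background. With the repetition number as a block these calls over all probes became 0 and 0. At an unadjusted p of 0.05 the count was again 0 of 32 genes and 3 of 49 probes, against 19.7% of all probes and 3.74% of those in the brightest signal group, where 25 of the 32 genes lay. The smallest adjusted p of a gene was 0.293, for the isomerase Gpi1. The levels of only 1 gene, the platelet phosphofructokinase Pfkp, did not overlap between the genotypes, being higher on NPRA-/- arrays, and 0 genes were lower without overlap. Over all probes 14.1% were higher and 1.29% lower in this way, and in the brightest signal group 3.64% and 1.7%.

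The fitted changes of the 32 genes ran from -0.26 (Pfkfb1) to 0.54 (Pfkp), which are folds of 0.838 and 1.46. Their median was 0.11, beside 0.16 for all genes tested. Of the 32 genes 25 were above 0 and 7 below, and of all 19062 genes tested 13713 were above and 5349 below. The direction of the 32 genes was not kept by every setting: after quantile normalization 13 were above 0 and 19 below, with a median of -0.05. Against the shift of all probes 14 genes lay above and 18 below, and against the shift of probes of like signal 22 lay above, with a median of 0.06. On scan day 1 alone, with 2 arrays of each genotype and the scaling as before, 13 were likewise above 0 and 19 below, and the median was -0.04. The 95% interval stayed within 1 log2 unit (2-fold) of 0 for 27 of the 32 genes and within 1.5-fold for 17, and the standard errors ran from 0.122 to 0.496 with a median of 0.19. The intervals of all 32 genes included 0, so none of the fitted changes could be told from 0 with these 8 arrays. A true change anywhere within a gene's interval is not excluded.

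**Figure D1:**
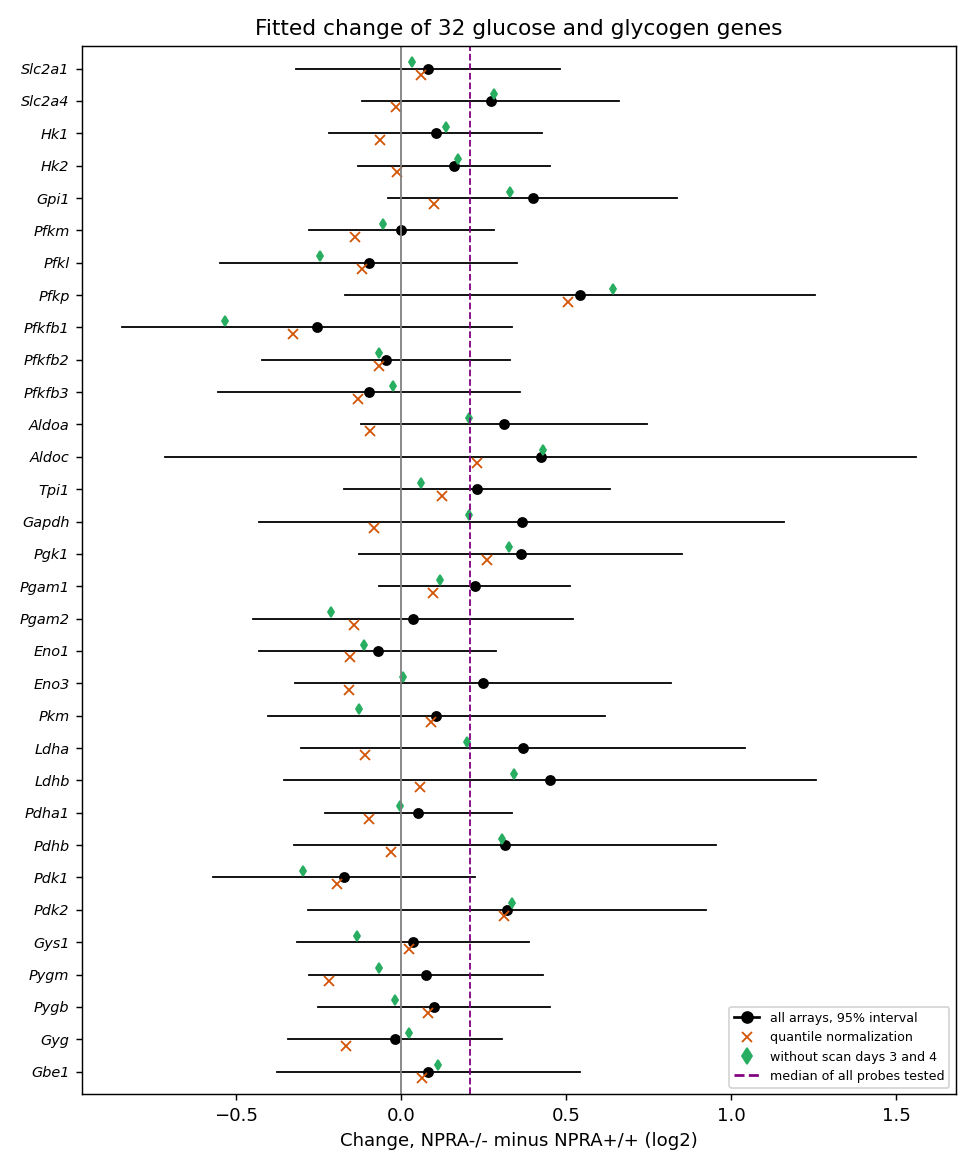
Fitted change of each of the 32 genes (log2, NPRA-/- minus NPRA+/+) with its 95% interval over all 8 arrays (black), after quantile normalization (crosses) and without the arrays of scan days 3 and 4 (diamonds); the dashed line is the median of all probes tested, 0.21. The black points run from -0.26 for Pfkfb1 to 0.54 for Pfkp, and the crosses lie lower than the black points for most genes.

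Glucose entry was measured at both transporters. Slc2a4 encodes the insulin-responsive transporter of muscle and fat. Its levels were 5.92, 5.74 and 5.63 on NPRA-/- arrays 1 to 3 and 5.84, 5.51, 5.42, 5.51 and 5.17 on NPRA+/+ arrays 1 to 5. Every NPRA-/- array was above 4 of the 5 NPRA+/+ arrays, and NPRA+/+ replicate 1 lay among the NPRA-/- values. The change was 0.27 ± 0.17 (fold 1.21; adjusted p = 0.419), it was 0.22 on scan day 1, and quantile normalization brought it to -0.02. Slc2a1, the basal transporter, had levels of 2.08, 2.27 and 2.23 against 1.71, 2.01, 2.24, 2.40 and 2.19. The NPRA-/- values lay inside the NPRA+/+ range, and the change was 0.08 ± 0.17.

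The hexokinases phosphorylate glucose on entry, Hk2 being the insulin-regulated form of muscle and Hk1 the form found in most tissues. Hk1 levels were 4.64, 5.00 and 4.79 on NPRA-/- arrays and 4.48, 4.78, 4.81, 4.79 and 4.66 on NPRA+/+ arrays. Hk2 levels were 4.83, 5.03 and 4.78 against 4.67, 4.76, 4.83, 4.78 and 4.56. NPRA-/- replicate 2 was the highest array for both genes and the other arrays overlapped, with changes of 0.11 ± 0.14 for Hk1 and 0.16 ± 0.13 for Hk2. After quantile normalization the changes were -0.06 and -0.01. A dimmer second probe of Hk1 gave 0.45 ± 0.19 (adjusted p = 0.241), with overlap between the genotypes.

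Gpi1, which turns glucose phosphate into fructose phosphate, had the smallest p of the 32 genes. Its levels were 5.82, 5.74 and 5.53 on NPRA-/- arrays and 5.27, 5.50, 5.60, 4.84 and 5.26 on NPRA+/+ arrays. The NPRA-/- means stood higher (5.69 ± 0.15 against 5.30 ± 0.30, SD, n = 3 and 5), but NPRA+/+ replicate 3 was above the lowest NPRA-/- array. The change was 0.40 ± 0.19 (fold 1.32; adjusted p = 0.293). The gene's other probes gave 0.29 ± 0.18 and 0.31 ± 0.25. On scan day 1 the change was 0.08, without NPRA+/+ replicate 4 it was 0.29, and after quantile normalization 0.10.

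Phosphofructokinase is the committed step of glycolysis, with a muscle (Pfkm), a liver (Pfkl) and a platelet (Pfkp) subunit. Pfkm levels were 4.54, 4.48 and 4.46 on NPRA-/- arrays and 4.36, 4.63, 4.58, 4.51 and 4.38 on NPRA+/+ arrays. The range over the 8 arrays was 0.28, and 0.47 after quantile normalization. Its genotype means were both 4.49 and its change was 0.00 ± 0.12, with a 95% interval from -0.28 to 0.28. Pfkl levels ran from -0.28 to -0.03 on NPRA-/- arrays and from -0.56 to 0.24 on NPRA+/+ arrays, a change of -0.10 ± 0.20.

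Pfkp levels were 0.24, 0.23 and 0.33 on NPRA-/- arrays and 0.07, 0.01, -0.50, -1.17 and 0.23 on NPRA+/+ arrays. The NPRA-/- values were tight (SD 0.05), while the NPRA+/+ values spread over more than 1 log2 unit (SD 0.57), and the nearest values of the genotypes round to the same 0.23. The change was 0.54 ± 0.31 (fold 1.46; adjusted p = 0.377). NPRA+/+ replicate 4 carried much of it, since without that array the change was 0.32. A second, dimmer probe of Pfkp gave 0.44 ± 0.19 (adjusted p = 0.258) with overlap, and 0.13 after quantile normalization. Pfkp was among the 5 genes whose change kept its sign under each of the 24 alternative settings, the others being Pfkl, Pfkfb1, Aldoc and Pgk1. The settings reuse the same arrays, so a kept sign is not independent support.

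The Pfkfb genes encode the enzymes that make and remove the small sugar bisphosphate that activates phosphofructokinase, Pfkfb2 being the heart form. All 3 had changes below 0, and also after quantile normalization: -0.26 ± 0.26 for Pfkfb1, -0.05 ± 0.16 for Pfkfb2 and -0.10 ± 0.20 for Pfkfb3. Pfkfb2 levels were 0.96, 1.18 and 0.94 on NPRA-/- arrays and 0.86, 1.24, 1.03, 0.86 and 1.37 on NPRA+/+ arrays. The genotypes overlapped for all 3 genes.

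A second Pfkfb3 probe, well above background on 6 of the 8 arrays, had the smallest adjusted p of the 49 probes. Its levels were -5.29, -5.38 and -5.42 on NPRA-/- arrays and -6.11, -5.90, -5.99, -6.00 and -5.77 on NPRA+/+ arrays, without overlap, a change of 0.59 ± 0.12 (adjusted p = 0.0752). Relative to the shift of the dimmest signal group, to which it belongs, the change was -0.04, and after quantile normalization it was -0.03. It was the only probe of the 49 called without the arrays of scan days 3 and 4 (change 0.52, adjusted p = 0.0375), a setting in which 11.2% of all probes were called higher and 0.509% lower and 0 of the 32 genes by their brightest probe. It was also the only one called on scan day 1 alone (change 0.55, adjusted p = 0.0341), where 15.6% of all probes were called higher and 1.37% lower.

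**Figure D2:**
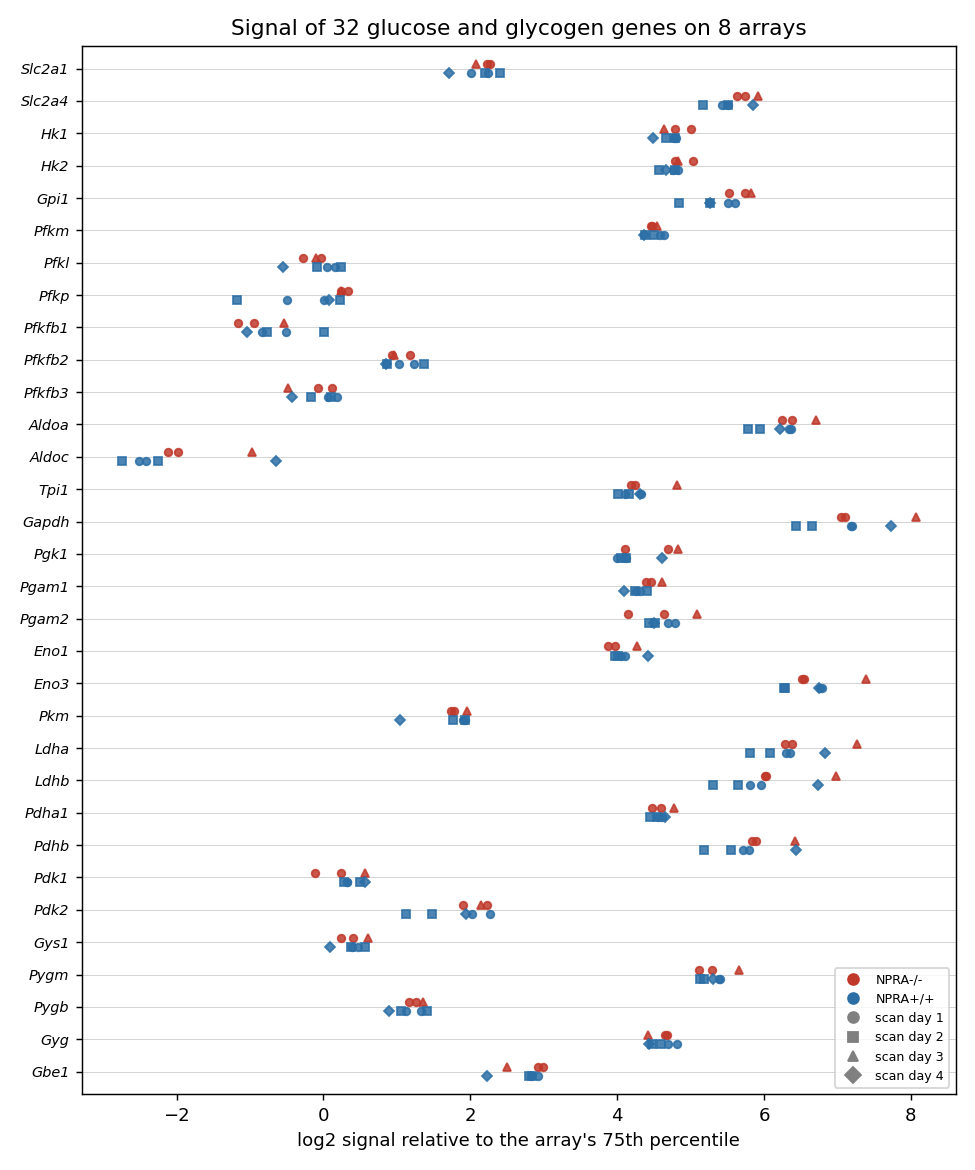
Level of each of the 32 genes (log2 signal relative to the array's 75th percentile, x axis) on the 3 NPRA-/- arrays (red) and the 5 NPRA+/+ arrays (blue), with the scan day as the symbol. The genotypes overlap for every gene but Pfkp, and the scan day 3 and 4 arrays (triangle and lozenge) sit to the right for Aldoc, Gapdh, Ldha, Ldhb and Pdhb.

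Aldolase splits the fructose bisphosphate, Aldoa being the muscle form and Aldoc the brain form. Aldoa levels were 6.70, 6.24 and 6.38 on NPRA-/- arrays and 6.22, 6.37, 6.34, 5.94 and 5.77 on NPRA+/+ arrays. NPRA-/- replicate 1 was the highest and the NPRA+/+ arrays of scan day 2 the lowest, with overlap between. The change was 0.31 ± 0.19 (fold 1.24; adjusted p = 0.403), it was -0.04 on scan day 1, and it was -0.09 after quantile normalization.

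Aldoc had the widest spread of the 32 genes, 2.10 log2 units over the 8 arrays, or 4.3-fold. Its levels were -0.97, -1.98 and -2.12 on NPRA-/- arrays and -0.64, -2.41, -2.51, -2.25 and -2.74 on NPRA+/+ arrays. Replicate 1 of each genotype, scanned on days 3 and 4, stood more than 1 unit above the others, and among the other 6 arrays both NPRA-/- values were above all 4 NPRA+/+ values. The change was 0.42 ± 0.50 over all arrays and 0.43 without the arrays of scan days 3 and 4, where its adjusted p was 0.131, and 0.23 after quantile normalization. Within scan day 1 it was 0.41 (adjusted p = 0.07).

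Tpi1, the triose phosphate isomerase, had levels of 4.81, 4.24 and 4.19 on NPRA-/- arrays and 4.30, 4.32, 4.11, 4.17 and 4.00 on NPRA+/+ arrays. NPRA-/- replicate 1 stood above the rest, and the other arrays overlapped. The change of 0.23 ± 0.18 (fold 1.17; adjusted p = 0.518) was 0.03 without that array and -0.0048 on scan day 1. A second probe of Tpi1 gave 0.03 ± 0.14.

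Gapdh, the dehydrogenase of the middle of glycolysis and a common reference gene, was measured by 7 probes that did not behave alike. On the brightest probe its levels were 8.07, 7.05 and 7.10 on NPRA-/- arrays and 7.72, 7.18, 7.20, 6.66 and 6.43 on NPRA+/+ arrays. Replicate 1 of each genotype was highest and the NPRA+/+ arrays of scan day 2 were lowest, so the spread did not follow genotype. The change was 0.37 ± 0.35 (adjusted p = 0.611). The next brightest probe gave 0.51 ± 0.27, while the other 5 gave values from -0.05 to -0.20. The range over the arrays was 1.63 and 1.53 on the 2 brightest probes and 0.46 to 0.60 on the others. All 7 probes carry the same transcript name, and what else they may detect is not given. Quantile normalization cut the range of the brightest probe from 1.63 to 0.64 and brought its change to -0.08.

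**Figure D3:**
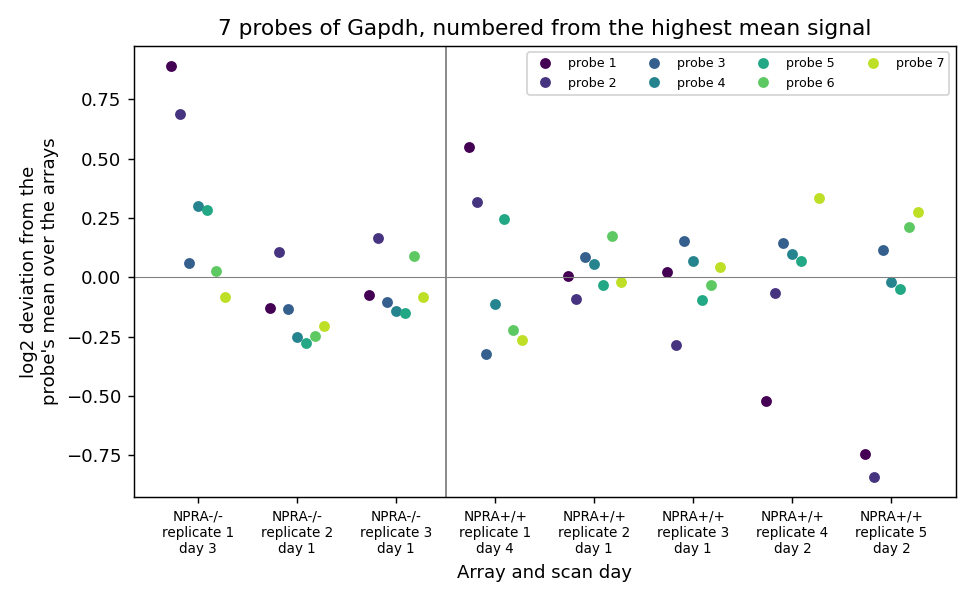
Deviation of each of the 7 Gapdh probes from its own mean over the arrays (log2, y axis) on each array, with its genotype, replicate and scan day on the x axis; probe 1 is the brightest. Probes 1 and 2 are high on NPRA-/- replicate 1 and NPRA+/+ replicate 1 and low on NPRA+/+ replicate 5, while the dimmer probes stay closer to 0; probe 6 lacks 1 array.

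Pgk1, the phosphoglycerate kinase that yields the first ATP of glycolysis, had levels of 4.83, 4.69 and 4.11 on NPRA-/- arrays and 4.61, 3.99, 4.12, 4.11 and 4.06 on NPRA+/+ arrays. NPRA-/- replicates 1 and 2 and NPRA+/+ replicate 1 lay between 4.61 and 4.83, and the other 5 arrays lay between 3.99 and 4.12. The change was 0.36 ± 0.21 (fold 1.29; adjusted p = 0.391). It was 0.34 on scan day 1, 0.26 after quantile normalization and 0.22 without NPRA-/- replicate 1.

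The phosphoglycerate mutases shift the phosphate group before enolase, with Pgam2 the muscle form and Pgam1 the form of most other tissues. Pgam1 levels were 4.61, 4.46 and 4.39 on NPRA-/- arrays and 4.09, 4.31, 4.25, 4.41 and 4.24 on NPRA+/+ arrays. Only NPRA+/+ replicate 4 reached the lowest NPRA-/- array, and the change was 0.22 ± 0.13 (fold 1.17; adjusted p = 0.372). It was 0.14 on scan day 1 and 0.10 after quantile normalization. Pgam2 levels were 5.08, 4.15 and 4.64 against 4.51, 4.69, 4.79, 4.44 and 4.52. Both the highest and the lowest array were NPRA-/-, and the change was 0.04 ± 0.21.

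Enolase has a muscle form, Eno3, and a widespread form, Eno1. Eno3 levels were 7.39, 6.51 and 6.55 on NPRA-/- arrays and 6.75, 6.76, 6.79, 6.29 and 6.27 on NPRA+/+ arrays. Apart from NPRA-/- replicate 1, the NPRA-/- arrays lay in the middle of the NPRA+/+ range. Its change of 0.25 ± 0.25 became -0.25 on scan day 1 and -0.16 after quantile normalization. Eno1 had a change of -0.07 ± 0.16, and Pkm, the pyruvate kinase of muscle and most other tissues, 0.11 ± 0.22. Pkm levels lay between 1.73 and 1.96 on 7 arrays and at 1.05 on NPRA+/+ replicate 1.

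Lactate dehydrogenase interconverts pyruvate and lactate, Ldhb encoding the heart subunit and Ldha the skeletal muscle subunit. Ldhb levels were 6.98, 6.02 and 6.01 on NPRA-/- arrays and 6.73, 5.95, 5.81, 5.64 and 5.30 on NPRA+/+ arrays. Ldha levels were 7.26, 6.38 and 6.29 against 6.83, 6.35, 6.30, 6.07 and 5.81. Replicate 1 of each genotype was highest for both genes, and NPRA+/+ replicate 5 was lowest. The change of Ldhb was 0.45 ± 0.35 (fold 1.37; adjusted p = 0.524), 0.14 on scan day 1 and 0.13 without NPRA-/- replicate 1. That of Ldha was 0.37 ± 0.29. After quantile normalization the changes were 0.06 and -0.11, and the range of Ldhb over the arrays went from 1.68 to 0.20. The dimmest of 3 Ldha probes gave 0.42 ± 0.17 (adjusted p = 0.226) without overlap between the genotypes.

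Pyruvate dehydrogenase admits pyruvate to the mitochondrial oxidation pathway, and the Pdk kinases switch it off. Pdhb, its beta subunit, had levels of 6.42, 5.90 and 5.84 on NPRA-/- arrays and 6.44, 5.79, 5.71, 5.55 and 5.19 on NPRA+/+ arrays. Replicate 1 of each genotype was again the highest, and the change was 0.31 ± 0.28, or -0.03 after quantile normalization. Pdha1, the alpha subunit, was steadier, with a range of 0.32 over the arrays and a change of 0.05 ± 0.12. Pdk1 levels were 0.56, 0.24 and -0.12 against 0.57, 0.32, 0.32, 0.29 and 0.50, a change of -0.17 ± 0.17. Pdk2 levels were 2.15, 2.22 and 1.90 against 1.94, 2.27, 2.03, 1.48 and 1.13. The NPRA+/+ arrays of scan day 2 were the low ones for Pdk2, and its change of 0.32 ± 0.26 was -0.09 on scan day 1.

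The changes of the 5 glycogen genes ran from -0.02 to 0.10. Relative to probes of like signal they ran from -0.06 for Gyg to 0.05 for Pygb, and after quantile normalization those of Pygm and Gyg were -0.22 and -0.17. Gyg encodes glycogenin, the protein primer on which glycogen starts, and had a change of -0.02 ± 0.14. Gys1, muscle glycogen synthase, had levels of 0.61, 0.40 and 0.24 on NPRA-/- arrays and 0.09, 0.47, 0.39, 0.38 and 0.56 on NPRA+/+ arrays, a change of 0.04 ± 0.15. Gbe1, the branching enzyme, had levels of 2.50, 3.00 and 2.92 against 2.23, 2.92, 2.82, 2.84 and 2.80. For Gbe1 the arrays of scan days 3 and 4 were the lowest of the 8, and the change was 0.08 ± 0.20.

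The phosphorylases release glucose units from glycogen. Pygm, the muscle form, had levels of 5.65, 5.29 and 5.12 on NPRA-/- arrays and 5.31, 5.39, 5.38, 5.13 and 5.19 on NPRA+/+ arrays, a change of 0.07 ± 0.16. Pygb, the brain form, had levels of 1.36, 1.27 and 1.16 against 0.89, 1.33, 1.13, 1.06 and 1.41, a change of 0.10 ± 0.15. The genotypes overlapped for all 5 glycogen genes. The other probe of Gys1 gave -0.02 ± 0.15 and that of Gyg 0.16 ± 0.15, each with the opposite sign to the brighter probe.

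Whether the balance of muscle and other isoforms differed was tested within each array, where the array's scaling factor cancels. In none of the 9 pairs were the genotypes free of overlap. The smallest two-sided exact permutation p was 0.179, for Pfkm minus Pfkp and for Eno3 minus Eno1 (0.804 after Benjamini-Hochberg over the 9 pairs), and the smallest that 56 splits of 3 and 5 arrays allow is 0.0357. After that adjustment a single pair free of overlap would have had a p of 0.321, and 7 of the 9 would have been needed to pass 0.05, so the adjusted values say nothing about a single pair. Pfkm minus Pfkp was 4.30, 4.25 and 4.13 on NPRA-/- arrays and 4.29, 4.62, 5.08, 5.68 and 4.15 on NPRA+/+ arrays, a difference of -0.54 between the genotype means that follows the Pfkp values above. Eno3 minus Eno1 was 3.12, 2.55 and 2.67 against 2.34, 2.65, 2.74, 2.28 and 2.29, a difference of 0.32 that was -0.09 on scan day 1.

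The pair of glucose transporters differed by 0.19 (exact p = 0.607), with Slc2a4 minus Slc2a1 at 3.84, 3.47 and 3.40 on NPRA-/- arrays and 4.14, 3.50, 3.18, 3.11 and 2.97 on NPRA+/+ arrays. Ldhb minus Ldha was -0.29, -0.36 and -0.27 against -0.11, -0.40, -0.49, -0.43 and -0.50, a difference of 0.08 (exact p = 0.5). NPRA+/+ replicate 1 was the highest array for both of these pairs, and the NPRA-/- values lay above the other 4 NPRA+/+ values for the lactate dehydrogenases alone. The differences of the other pairs were 0.06 for Hk2 minus Hk1, 0.10 for Pfkm minus Pfkl, -0.11 for Aldoa minus Aldoc, -0.19 for Pgam2 minus Pgam1 and -0.03 for Pygm minus Pygb. Their exact p lay between 0.357 and 0.857. Set against each other within the 3 repetition numbers that both genotypes carry, as a replicate block, the arrays gave -0.13, -0.04 and -0.30 for Pygm minus Pygb, a mean of -0.15. It was the only pair of the 9 with the same sign in all 3 numbers, and the exact sign-flip p was 0.25, the smallest that 3 numbers allow. Sign flips give any pair 1 sign in all 3 numbers with that probability, so 1 pair of 9 does not stand out. The block for pairs was chosen after seeing the data, and its number 1 sets scan day 3 against scan day 4. The block also turned the difference of the glucose transporters to -0.0353 and that of Pfkm minus Pfkl to -0.011.

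**Figure D4:**
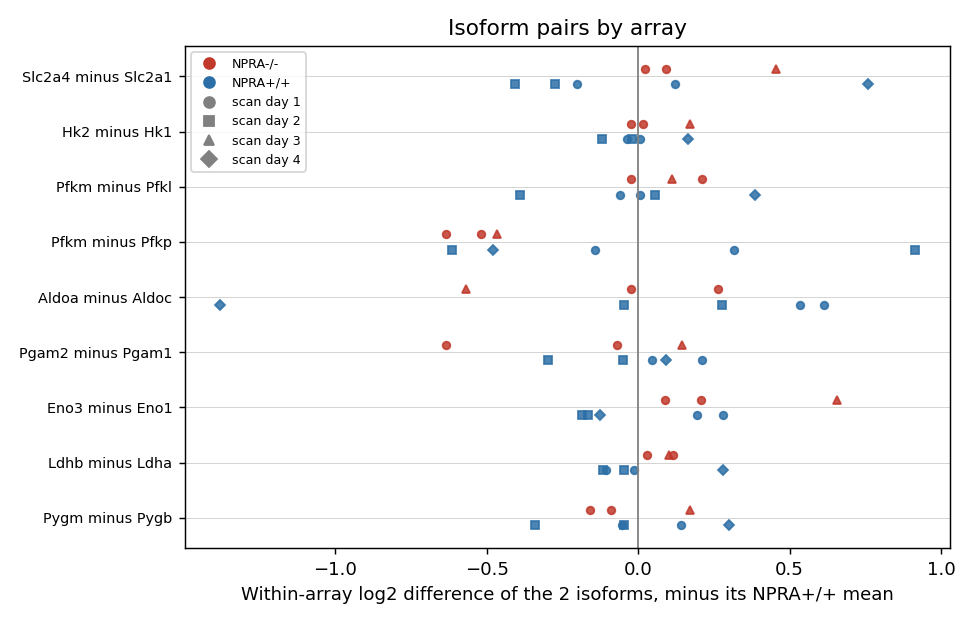
Within-array difference of the log2 signals of 9 isoform pairs, shifted so that the NPRA+/+ mean of each pair is 0 (x axis), for the 3 NPRA-/- arrays (red) and the 5 NPRA+/+ arrays (blue), with the scan day as the symbol. Red and blue points overlap in every pair.

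The extremes of many genes fell on the same few arrays. NPRA-/- replicate 1 was the highest of the 8 arrays for 15 of the 32 genes, NPRA+/+ replicate 5 was the lowest for 12 and NPRA+/+ replicate 1 the lowest for 10. The arrays of scan days 3 and 4 were both above the other 6 for 9 genes (28.1%, beside 16.6% of all genes tested): Slc2a4, Aldoc, Gapdh, Eno1, Ldha, Ldhb, Pdha1, Pdhb and Pdk1. They were both below the other 6 for Hk1, Pfkfb3, Gyg and Gbe1 (12.5%, beside 21.2% of all genes tested).

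Markers of heart muscle cells were also highest, on average, on the arrays of scan days 3 and 4. The mean level of 10 cardiomyocyte markers, all measured, was 7.52, 6.33 and 6.26 on NPRA-/- arrays and 7.24, 6.11, 5.99, 5.84 and 5.32 on NPRA+/+ arrays. That order of arrays is the order of the Ldhb levels. For Pdhb the order differed only at the top, with NPRA+/+ replicate 1 at 6.44 and NPRA-/- replicate 1 at 6.42. For Slc2a4 it differed only in NPRA+/+ replicates 3 and 4, at 5.42 and 5.51. For Ldha only NPRA-/- replicate 3 was out of place, at 6.29, just below NPRA+/+ replicates 2 and 3. The orders of Aldoc, Gapdh, Eno1, Pdha1 and Pdk1 differed in more places. All 10 markers had changes above 0 (median 0.63) and 0 were called. In bulk RNA fewer cells of a type and less RNA per cell cannot be told apart, and the part of the markers in the values above was not tested. Quantile normalization narrowed the range over the arrays for 19 of the 32 genes, for Pdhb from 1.25 to 0.26 and for Ldha from 1.46 to 0.47, and left that of Aldoc at 1.82.

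**Figure D5:**
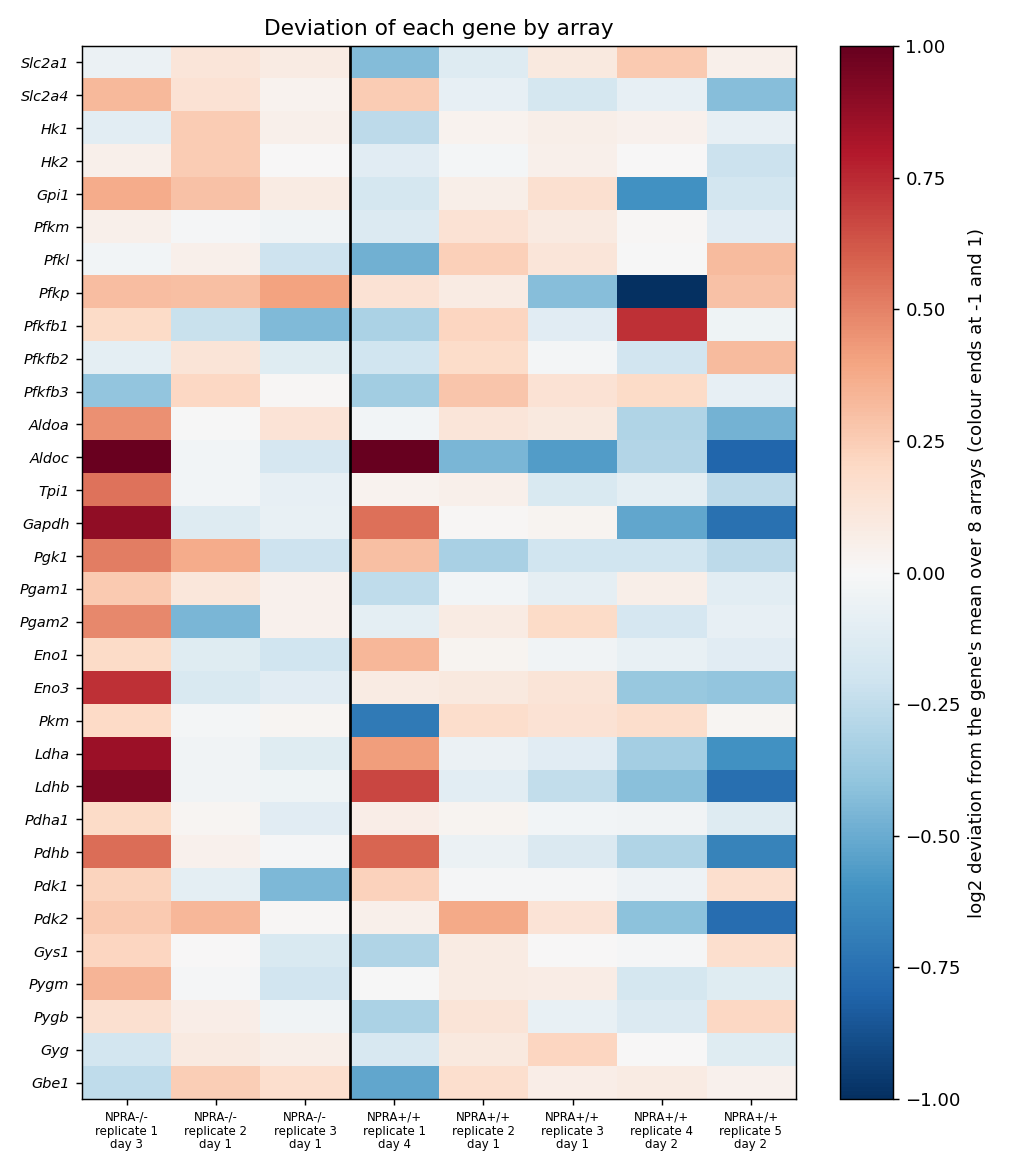
Deviation of each of the 32 genes from its own mean over the 8 arrays (log2, colour), with the genes by step down the y axis and the arrays with their scan day along the x axis; the black line parts the genotypes. NPRA-/- replicate 1 and NPRA+/+ replicate 1 are high together for Aldoc, Gapdh, Ldha, Ldhb and Pdhb, and NPRA+/+ replicate 5 is low for them.

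Markers of other cell types were looked at in the same way. Of 8 lists with 54 genes, 51 were measured, and 1 gene was called, the mesothelial marker Msln (2.48 ± 0.36, adjusted p = 0.0498, or 0.136 with the repetition number as a block). The mean level of the 6 mesothelial markers ran from -3.83 to -2.83 on NPRA-/- arrays and from -5.65 to -4.86 on NPRA+/+ arrays. Fast skeletal muscle shares several of the muscle isoforms. Of its myosin heavy chains, Myh4 and Myh1 were above background on 5 and 4 arrays and Myh2 on all 8. The mean level of the 12 genes of that list ran from -1.72 to -1.48 on NPRA-/- arrays and from -2.28 to -1.47 on NPRA+/+ arrays, and replicate 1 of each genotype was the highest of its genotype. Not all of its genes ran together. On NPRA-/- replicate 1 and NPRA+/+ replicate 1 Myh4 was at its highest (-1.50 and 0.84) and Myh1 at its lowest (-7.13 and -7.63). Neither of these was above background on all 8 arrays, and the list's other genes are not given singly here. Whether either kind of cell had a part in the values above was not tested.

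The rest of the pathway was read from 6 lists of 85 genes, of which 84 were measured. None was called in either direction. At an unadjusted p of 0.05 (limma) 7 of the 84 were higher and 1 lower. Beside them stood 3090 higher and 236 lower of all 19062 genes tested, so the 7 do not set these genes apart. The median change was 0.05, below the 0.16 of all genes tested. Without the arrays of scan days 3 and 4, 3 of the 84 were called higher and 0 lower, again beside 11.2% and 0.509% of all probes.

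Among genes that control glucose use, Mef2a stood out on the lower side. It encodes a muscle transcription factor known to act on the Slc2a4 promoter. Its levels were 1.55, 2.34 and 2.29 on NPRA-/- arrays and 2.68, 2.91, 2.80, 2.86 and 3.36 on NPRA+/+ arrays, without overlap. The change was -0.86 ± 0.23 (fold 0.551; adjusted p = 0.105), and it was -0.89 after quantile normalization. Tbc1d1, a brake on transporter movement that insulin and AMPK release, had levels from -0.43 to -0.20 against -0.87 to -0.43 and a change of 0.39 ± 0.14 (adjusted p = 0.191). In this list of 20 genes, 9 changes were above 0 and 11 below.

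Among other genes of glucose phosphorylation, Hkdc1 and Hk3 had the smallest p. Hkdc1, a hexokinase-like gene, had a change of 0.91 ± 0.28 (adjusted p = 0.139) and Hk3, the hexokinase of white blood cells, 0.47 ± 0.16 (adjusted p = 0.169). Both passed without the arrays of scan days 3 and 4, with adjusted p of 0.0378 and 0.0461. The mean level of 4 neutrophil and macrophage markers ran from 0.44 to 0.85 on NPRA-/- arrays and from -0.13 to 0.21 on NPRA+/+ arrays, and its part in the Hk3 values was not tested. In the list of glycolysis isoforms Pgk2, the testis kinase, had 0.66 ± 0.27 and Galm, which interconverts the ring forms of glucose, 0.30 ± 0.14.

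The lactate and pyruvate carriers Slc16a3 and Slc16a1 led the list of pyruvate and lactate genes, with changes of 0.49 ± 0.19 and 0.79 ± 0.34. Slc16a1 levels were -1.94, -2.36 and -2.35 on NPRA-/- arrays and -1.96, -3.15, -3.35, -3.11 and -3.47 on NPRA+/+ arrays. NPRA+/+ replicate 1 lay among the NPRA-/- values, and without the arrays of scan days 3 and 4 the change was 0.92 (adjusted p = 0.0243). Pdk4, the pyruvate dehydrogenase kinase induced by fasting, was picked after its values were seen, having the third smallest p of this list. Its levels were 5.25, 4.66 and 5.00 against 5.77, 5.69, 5.32, 4.95 and 5.81, a change of -0.54 ± 0.24 (adjusted p = 0.26) with overlap at NPRA+/+ replicate 4.

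In the glycogen list Phka1, a subunit of the kinase that turns on phosphorylase, had 0.30 ± 0.14, and Gaa, the lysosomal enzyme that breaks down glycogen, 0.43 ± 0.23. In the list of pentose phosphate and hexosamine genes Gfpt2, an entry enzyme of the hexosamine branch, had levels of 0.43, 0.44 and 0.80 on NPRA-/- arrays and 0.12, -0.10, -0.31, -0.27 and -0.88 on NPRA+/+ arrays. These did not overlap, and the change was 0.84 ± 0.23 (fold 1.79; adjusted p = 0.108), or 0.81 after quantile normalization. Tkt, the transketolase of the pentose phosphate branch, had 0.25 ± 0.14.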

How the data were processed

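The deposited scanner files give each spot's brightness as a linear intensity. They were written by Agilent Feature Extraction (version 11.0.1.1), named in the submitters' processing notes and in the file headers. Per the file headers, background was subtracted within each array to give the processed intensity, without scaling between arrays. The deposited files also hold flags, a score of 0 or 1, for spots above background, saturated or outlying. The deposited series table holds log2 values whose scaling the sources used here do not give. Its columns ranked probes as their own arrays did (rank correlation of at least 0.9994), each with a median of 7.05.

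Control spots and outlying spots were left out (1 spot of the members' probes), the log2 spots of a probe were averaged, and each array's 75th percentile was subtracted. Probes well above background on at least 3 of 8 arrays were tested (35329). Of 39429 probes, 27242 were named with 1 symbol through their RefSeq transcript and the table of the assembly GRCm38.p6, and 12187 were not. Coordinates are left out because the design's build differs from that table's, and no probe sequence was used here. The probe with the highest mean stood for a gene.

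The genotype effect was fitted as the only term in limma 3.58.1 (lmFit and eBayes under R 4.3.3), with two-sided p adjusted by Benjamini-Hochberg across the probes tested and a threshold of 0.05. Isoform pairs were compared with exact permutation tests in scipy 1.17.1. Every adjusted p of a gene comes from limma. Errors after ± are standard errors of a change or, where marked, SDs. The permutation test and the adjustment used for the isoform pairs were checked on made-up values with known answers. Full statistics were given for the 8 members of smallest p. The change and its standard error were given for the 2 genes of smallest p in each pathway list. The members and lists were chosen with earlier results of these data known. Alternatives changed the scaling, background correction, dim-probe filter, probe choice, variance model, scan day, slide, blocks and single arrays. Arrays with the same repetition number in the labels deviated together (r = 0.635, 0.278 and 0.359 over all probes), so the number was used as a block. Arrays of other numbers also did, with r up to 0.331, so that for replicates 2 and 3 the check does not single out the numbers. The source names instead number NPRA+/+ replicates 1, 2 and 3 all as 1, and replicates 4 and 5 as 2 and 3. Whether replicates 1, 2 and 3 came from separate animals is not given.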

Additional observations from a re-analysis of the deposited data

Results flagged for a closer look

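Among the 5 NPRA+/+ arrays, replicate 1, the array scanned on day 4, stood apart from the other 4 by Dixon's criterion for 4 of the 32 genes and 1 of the 9 isoform pairs. Chance sets apart about 1 in 20 such groups. The level of Aldoc, the brain aldolase, was -0.64 there and between -2.74 and -2.25 on the others. The level of Pgk1 was 4.61 there, with the others between 3.99 and 4.12. The pyruvate kinase Pkm went the other way, at 1.05 against 1.77 to 1.93, as did the glycogen branching enzyme Gbe1, at 2.23 against 2.80 to 2.92. The difference Ldhb minus Ldha was -0.11 on this array and between -0.50 and -0.40 on the others. Without this array the counts over all probes were 3901 higher and 187 lower, and 0 of the 32 genes passed in either direction (limma). At an unadjusted p of 0.05 (limma) 5 of the 32 genes were higher and 0 lower. Beside them stood 10621 of the 35329 probes in either direction, so the 5 do not set these genes apart.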

How the results depend on the processing

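Under each of the 24 alternatives 0 of the 32 genes passed the threshold, and 5 kept the sign of their change in all of them. Over all probes the counts of 113 higher and 10 lower became 0 and 0 under quantile normalization, scaling to the median, normexp, the series table, scan day as a block and slide as a random block, 5494 and 485 on scan day 1, and 3954 and 180 without scan days 3 and 4. Quantile normalization on scan day 1, leaving out scan days 3 and 4, and the replicate block for isoform pairs were chosen after seeing the data. The cause of the differences below was not tested. The members' median change of 0.11 became -0.0465 under quantile normalization, -0.18 with scaling to the median, -0.0282 with normexp, -0.0453 in the series table, -0.0437 with scan day as a block or on scan day 1 alone, and -0.0867 with quantile normalization on scan day 1. Relative to all probes it was -0.22 with scan day as a block or on scan day 1, beside -0.10. Aldoa gave -0.094, -0.10 and -0.11 under quantile normalization, normexp and the series table, -0.0424 with scan day as a block or scan day 1, and -0.19 with quantile normalization on scan day 1. Slc2a4 gave -0.016, -0.0472 and -0.0209 under those first 3 and -0.0182 with scaling to the median, where Pgam1 gave -0.0671 and Tpi1 -0.0608. Tpi1 gave -0.0048 with scan day as a block or scan day 1. With quantile normalization on scan day 1, Tpi1 gave -0.0027, Gpi1 -0.0385 and Ldhb -0.0258. Among pairs, Slc2a4 minus Slc2a1 gave -0.0759, -0.0812 and -0.0891 under quantile normalization, normexp and the series table, Pfkm minus Pfkl -0.0211 and -0.0456 under quantile normalization and the series table, and Eno3 minus Eno1 -0.0013 and -0.0199 under quantile normalization and normexp and -0.0897 on scan day 1. Hk2 minus Hk1 gave -0.12 when all probes of a gene were averaged. Leaving out 1 array at a time, the range was -0.0027 to 0.10 for Hk2 minus Hk1, -0.45 to 0.12 for Aldoa minus Aldoc, -0.35 to 0.037 for Pgam2 minus Pgam1 and -0.12 to 0.0493 for Pygm minus Pygb.

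With the repetition number as a replicate block the members' median was 0.11, their smallest adjusted p was 0.296 (Pfkp), and it changed no call of a member. Among isoform pairs this block gave -0.0353 for Slc2a4 minus Slc2a1, -0.011 for Pfkm minus Pfkl, -0.30 for Pgam2 minus Pgam1 and -0.15 for Pygm minus Pygb. With the source name numbers as the block, 1 probe was called higher and 21 lower over all probes and 0 of the 32 genes (smallest adjusted p 0.146, Gapdh). Averaging the arrays of a genotype that share a source name number called 0 higher and 0 lower over all probes. There 0 of the 32 genes passed (limma, smallest adjusted p 0.182, Gpi1). The number of arrays limits the precision, as does the lack of a scan time shared by both genotypes.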
